A study of Medicago truncatula with 24 samples.

Results

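Small RNAs of the miR156, miR157 and miR172 families were followed in shoots and distant roots of the legume Medicago truncatula. The files list 427 small RNA sequences, and 14 of them belong to these families. A sequence was a member when the closest conserved plant miRNA family, at no more than 3 mismatches over at least 18 nt, was one of the 3, or when it formed a duplex with such a sequence as its opposite arm. A duplex needed a 2-nt 3′ overhang at either or both ends, at least 17 paired positions, no more than 4 G-U pairs and no more than 3 mismatches. A single bulged base was allowed and counted as a mismatch. There were 5 mature and 4 opposite-arm sequences of miR156/miR157 and 3 mature and 2 opposite-arm sequences of miR172. Counts were recorded for 13 of the 14. The other, an opposite arm of miR172, was at 0 in each of the 24 libraries, where absence cannot be told from a level too low to be counted.

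The plants were the reference genotype A17 and the mutant cra2, with no allele named in the labels; CRA2 encodes a receptor kinase that perceives CEP peptides, which carry nitrogen status between root and shoot. Root systems were split at 3 weeks, after growth on 0.5 mM KNO3, and 4 days before harvest at 4 weeks the local side received either 10 mM NH4NO3 (satiety) or 0.05 mM KNO3 (deficit). The distant side received no mineral nitrogen in any of the 8 groups. Shoots and distant roots of each genotype under each local supply gave 3 libraries a group, 24 in all; whether a library pools several plants is not stated in the labels, so p-values measure the spread between these libraries.

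miR156 and miR157 are closely related and guide the cleavage or repression of transcripts for SPL transcription factors. In Arabidopsis they are high in juvenile shoots and decline with age, while SPL proteins activate miR172 genes, so that miR172 rises as the plant matures. miR172 represses transcripts of AP2-like factors, and in soybean it acts in nodule formation through the AP2-like repressor NNC1.

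The sequences that carry most of the counts are printed 5′ to 3′ as the deposited files give them, with bases 2 to 8, the seed by which a mature miRNA first pairs, in capitals; within a family they are numbered by total count.
miR156 no. 1: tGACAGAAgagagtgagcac
miR157 no. 1: tTGACAGAagatagagggcac
miR157 no. 2: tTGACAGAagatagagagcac
miR172 no. 1: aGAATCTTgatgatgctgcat
miR172 no. 2: aGAATCCTgatgatgctgcag
miR156 opposite arm no. 1: tGCTTACTctctatctgtcacc
miR157 opposite arm no. 1: gCTCTCTAgacttctgtcatc
miR172 opposite arm no. 1: gTAGCATCatcaagattcaca

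Both miR157 sequences share the seed TGACAGA and differ by a single substitution outside it, A17G from no. 2 to no. 1 with positions counted from 1 at the 5′ end. The miR156 seed, GACAGAA, is the miR157 one moved by a base, because miR157 starts with an additional T. The miR172 sequences differ by T7C and T21G from no. 1 to no. 2, and the first of these lies in the seed (GAATCTT in no. 1, GAATCCT in no. 2). miR156 no. 1 held 325801 counts over the 24 libraries, miR157 no. 1 held 188372, miR157 no. 2 held 22910, miR172 no. 1 held 98178 and miR172 no. 2 held 10104. Among the opposite arms, the one of miR157 stood out with 78282 counts; the miR156 arm had 4337 and the miR172 arm 368.

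The remaining members were rare. miR156 no. 2 had 400 counts and differed from no. 1 by A12G, miR172 no. 3 had 426 and lacks the last base of no. 1, and the second opposite arms of miR157 and miR156 had 282 and 44. A sequence equally close to miR156 and miR157 had 11. No source used here says how reads were matched to near-identical sequences, so splits between such pairs are less certain than sums over a family. Outside the duplex rule, with 4 mismatches in their best duplex, lay 7 sequences with 0 to 168767 counts. They pair at 14 or 15 positions, where the rule requires 17. The most abundant, tccaatgtaatctaggtctac, pairs with miR172 no. 3 at 14 positions, and tgctcacttctctttctgtcatc, with 957 counts, pairs with miR156 no. 2 at 14. Just inside the rule, miR157 opposite arm no. 1 pairs at 17 positions with 2 mismatches, a bulged base included.

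Between 768323 and 1661422 counts were listed per root library and between 1494211 and 3919811 per shoot library, and the most abundant sequence took 67.1% to 84.9% of them. Members made up 0.272% to 0.553% of root counts and 1.46% to 3.17% of shoot counts. Levels are given as TMM-normalised CPM (counts scaled to a common library size), a relative scale on which fewer cells of a type and less RNA per cell cannot be told apart. Log2 changes come from edgeR quasi-likelihood fits with their own scaling factors, and "called" means a Benjamini-Hochberg adjusted p under 0.05 over all sequences tested. Replicate 3 of the cra2 root satiety group stood apart, with 2043 CPM of miR157 no. 2 against 220 and 504 in its fellow libraries and 131 CPM of miR157 opposite arm no. 2 against 1.91 and 6.41. Replicate 3 of the cra2 shoot deficit group was high for miR156 no. 1, at 20550 CPM against 7244 and 8178.

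miR156 and most of miR157 were far more abundant in shoots than in distant roots, whatever the genotype or supply. miR156 no. 1 ranged from 7244 to 20550 CPM with a median of 10180 in the 12 shoot libraries, and from 687 to 1561 CPM with a median of 1280 in the 12 root libraries, so the organs did not overlap. Across the 4 shoot to root comparisons, each in a single genotype and supply, its log2 difference was 2.98 to 3.72 (the lowest with SE 0.33, edgeR adjusted p = 7.5e-08). miR157 no. 1 spanned 4681 to 11940 CPM with a median of 6298 in shoots, and 97.2 to 580 CPM with a median of 259 in roots. Its log2 difference was 3.52 to 5.34 (the lowest with SE 0.47, edgeR adjusted p = 1.3e-06).

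The widest organ gap belonged to miR157 opposite arm no. 1, the strand usually discarded. It lay between 1497 and 5459 CPM in shoots (median 2748) and between 20.6 and 174 CPM in roots (median 49.8), a log2 difference of 4.76 to 6.09 (the lowest with SE 0.61, edgeR adjusted p = 6.3e-07). miR156 opposite arm no. 1 and miR156 no. 2 were also called higher in shoots in each of the 4 comparisons, by 2.18 to 4.58 and by 2.45 to 3.11 on the log2 scale. miR156 no. 2 was near the floor, at 0 to 4.1 CPM in roots and 9.27 to 27.9 CPM in shoots. It is a single base away from the far more abundant miR156 no. 1, and how reads were split between them is not known. miR157 no. 2 did not follow in the fit of all libraries: it spanned 158 to 987 CPM in shoots (median 537) and 90.6 to 2043 CPM in roots (median 347), overlapping throughout, and its log2 difference of -0.61 to 0.60 was called in none (edgeR adjusted p 0.374 to 0.488). In A17 under deficit it was called higher in shoots when only the compared libraries were fitted (0.74, edgeR adjusted p = 0.026). Adding the replicate number as a block to that fit gave 0.79 (edgeR adjusted p = 0.00062).

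**Figure D1:**
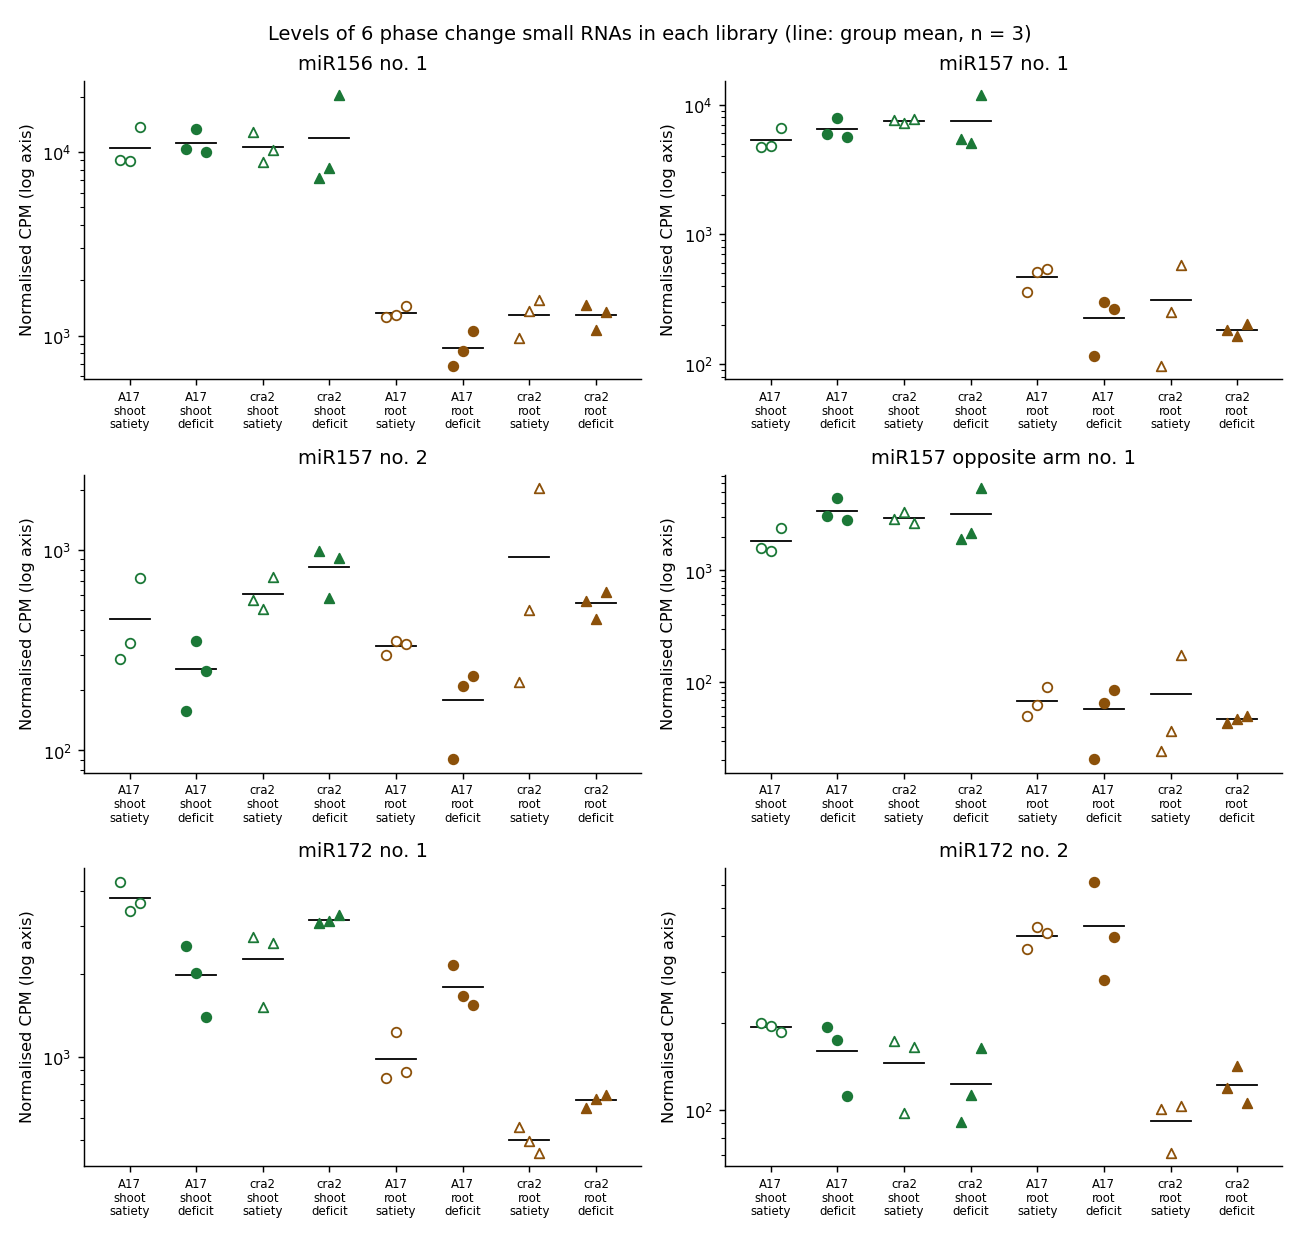
Normalised CPM (log axis) of 6 sequences in each of the 24 libraries, by group; circles are A17, triangles cra2, green shoots, brown roots, open symbols satiety, filled symbols deficit, and each line is the mean of 3 libraries. Shoot and root libraries separate in the panels of miR156 no. 1, miR157 no. 1 and miR157 opposite arm no. 1, overlap for miR157 no. 2, and in the panel of miR172 no. 2 the 6 A17 root libraries lie above all others.

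miR172 no. 1 was higher in shoots by a smaller margin and not in every comparison. It spanned 1401 to 4344 CPM in shoots (median 2906) and 451 to 2163 CPM in roots (median 785). Its log2 difference was 1.94 ± 0.25 (SE) in A17 under satiety, 2.19 ± 0.25 in cra2 under satiety and 2.18 ± 0.25 in cra2 under deficit, all called with an edgeR adjusted p of 4.9e-07 or less. In A17 under deficit it was 0.15 ± 0.24 (edgeR adjusted p = 0.635), and shoot and root libraries overlapped. miR172 no. 2 went the other way in A17, lower in shoots by -1.05 ± 0.29 under satiety and by -1.44 ± 0.29 under deficit (edgeR adjusted p = 0.0042 and 0.00021). In cra2 its differences were 0.67 ± 0.30 and 0.0047 ± 0.29, neither called (edgeR adjusted p = 0.0685 and 0.992).

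In all, 7 of 11 tested members were called between organs in A17 under satiety (6 higher in shoots), 6 of 11 in A17 under deficit (5 higher), 9 of 11 in cra2 under satiety (8 higher) and 7 of 11 in cra2 under deficit (7 higher). Of all 200 sequences tested, 49.5%, 56%, 46% and 48.5% were called in these comparisons. The members' median log2 differences were 1.94, 0.51, 2.18 and 2.18, against 0.23, -0.12, -0.13 and 0.07 over all sequences. Scaling by library totals moved these latter medians to -0.61, -0.98, -0.74 and -0.52, and the members miR156 no. 1, miR156 no. 2, miR156 opposite arm no. 1, miR157 no. 1 and miR157 opposite arm no. 1 were still called higher in shoots in all 4 comparisons. The single lower call in cra2 under satiety, miR157 opposite arm no. 2 at -4.12, rested on the library that stood apart: without it the value was -0.69 (edgeR adjusted p = 0.53). The cra2 calls of miR172 no. 3 under satiety (1.497) and of miR172 opposite arm no. 1 under deficit (1.28) were each lost without single libraries, down to 1.23 and 0.80. With library totals both were lost (0.85 and 0.60), as was the cra2 satiety call of miR172 opposite arm no. 1 (from 1.67 to 1.02; edgeR adjusted p 0.133 to 0.395 for the 3).

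Counting both families against each other within a library avoids any scaling between libraries. The ratio of summed miR156 and miR157 counts to summed miR172 counts, opposite arms included, was 3.45, 4.33 and 6.13 in A17 shoots under satiety and 7.19, 11.9 and 12.4 under deficit. In cra2 shoots it was 8.24, 12.2 and 7.73 under satiety and 4.93, 4.97 and 11.4 under deficit. All 12 shoot libraries thus held more miR156 and miR157 than miR172.

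In A17 roots the ratio was 1.63, 1.33 and 1.84 under satiety and 0.328, 0.725 and 0.845 under deficit, so miR172 outnumbered miR156 and miR157 only in the A17 root deficit libraries. In cra2 roots it was 2.01, 3.8 and 8.10 under satiety and 2.90, 2.07 and 2.66 under deficit, and each of these 6 libraries lay above each of the 6 A17 root libraries. The geometric means, in rising order, were 0.586 (A17 root deficit), 1.59 (A17 root satiety), 2.52 (cra2 root deficit), 3.96 (cra2 root satiety), 4.51 (A17 shoot satiety), 6.53 (cra2 shoot deficit), 9.20 (cra2 shoot satiety) and 10.2 (A17 shoot deficit). From cra2 root deficit upwards, neighbours in this order overlapped in their libraries.

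Exact two-sided permutation tests within strata, adjusted over 5 comparisons, separated organs and root genotypes. The log2 ratio was 2.06 higher in shoots than in roots (permutation p = 2.5e-05, adjusted 0.000125), with differences of 1.51, 4.12, 1.22 and 1.37 in A17 satiety, A17 deficit, cra2 satiety and cra2 deficit. Among roots it was 1.71 higher in cra2 than in A17 (permutation p = 0.005, the smallest the design allows, adjusted 0.0125), by 1.32 under satiety and 2.11 under deficit.

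Root deficit libraries had a ratio lower by -1.05 than root satiety libraries (permutation p = 0.025, adjusted 0.0417), by -1.44 in A17 and -0.65 in cra2. That call was lost without A17 root satiety replicate 3 (-0.99), cra2 root deficit replicate 2 (-0.97) or cra2 root satiety replicate 3 (-0.79), at permutation p of 0.055 to 0.06. Exact sign flips over same-numbered pairs gave a permutation p of 0.0625, with cra2 pairs included although the cra2 root numbers were not taken as pairing. In shoots neither supply (0.34, made of 1.18 in A17 and -0.49 in cra2; permutation p = 0.375, adjusted 0.469) nor genotype (0.19, made of 1.03 under satiety and -0.64 under deficit; permutation p = 0.645, adjusted 0.645) passed.

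**Figure D2:**
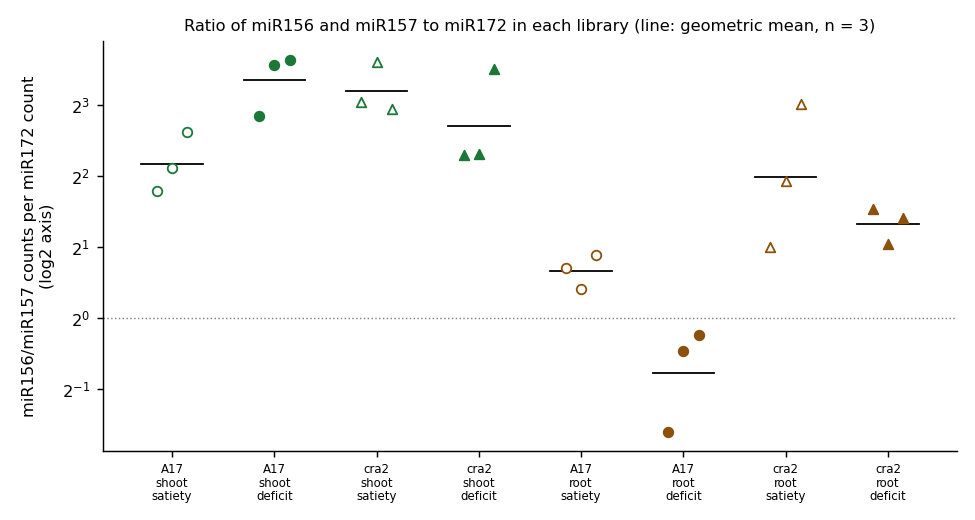
Counts of miR156 and miR157 per count of miR172 (log2 axis) in each library, by group, with symbols as in the plot of levels and lines for geometric means of 3 libraries; the dotted line marks equal counts. The 3 A17 root deficit libraries lie under the dotted line, the 6 cra2 root libraries above all A17 root libraries, and the 12 shoot libraries between 3.45 and 12.4.

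Within miR157 the organs differed in which sequence dominated. miR157 no. 1 made up 92.6% ± 3.4 (SD, n = 12) of mature miR157 counts in shoots, never less than 84.6% in a library. In A17 roots its share was 54.2%, 59.0% and 61.3% under satiety and 55.9%, 58.9% and 53.1% under deficit. In cra2 roots it was 30.7%, 33.4% and 22.1% under satiety and 24.5%, 26.7% and 24.7% under deficit, so no. 2 was the more abundant form in all 6 cra2 root libraries and in none of the A17 ones. This includes the library that stood apart, but the other 5 lie at 24.5% to 33.4% without it.

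These splits were tested as log2 ratios of counts, 20 tests added after the files were seen and adjusted together. miR157 no. 1 over no. 2 was 4.31 higher in shoots than in roots (exact permutation p = 1.25e-05, the smallest the design allows, adjusted 8.3e-05; higher in 4 of 4 strata). In roots the ratio was lower in cra2 than in A17 by -1.86 (exact permutation p = 0.005, adjusted 0.02), by -1.81 under satiety and -1.90 under deficit. In shoots it was lower in cra2 by -0.83, which did not pass (exact permutation p = 0.045, adjusted 0.113).

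The miR172 sequences also split by organ. miR172 no. 2 made up 5.51% ± 1.53 (SD, n = 12) of mature miR172 counts in shoots, 29.0% ± 2.9 in A17 roots under satiety, 19.0% ± 4.0 in A17 roots under deficit, 15.4% ± 3.0 in cra2 roots under satiety and 14.8% ± 2.1 in cra2 roots under deficit (SD, n = 3 each). The log2 ratio of no. 2 to no. 1 was lower in shoots by -2.06 (exact permutation p = 1.25e-05, adjusted 8.3e-05). Between root genotypes the difference of -0.79 stood at an adjusted value of 0.05 and was not called (exact permutation p = 0.015).

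Opposite arms were 13.9% ± 2.6 (SD, n = 12) of miR156 and miR157 counts in shoots and stayed between 2.50% and 7.68% in the 12 root libraries. The duplex rule named a single partner, and for miR157 opposite arm no. 1 this was miR157 no. 2. miR157 no. 1 differs from no. 2 by A17G alone and the rule allows G-U pairs. The match therefore does not exclude no. 1 as a partner. The log2 ratio of this opposite arm to miR157 no. 1, whose own share differs by organ, was 0.98 higher in shoots (exact permutation p = 1.25e-05, adjusted 8.3e-05, higher in 4 of 4 strata). The log2 ratio of mature miR157 to mature miR156 had an organ difference of 0.22 that did not pass (exact permutation p = 0.279, adjusted 0.398), and it was 0.37 higher in cra2 than in A17 shoots (exact permutation p = 0.005, adjusted 0.02).

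**Figure D3:**
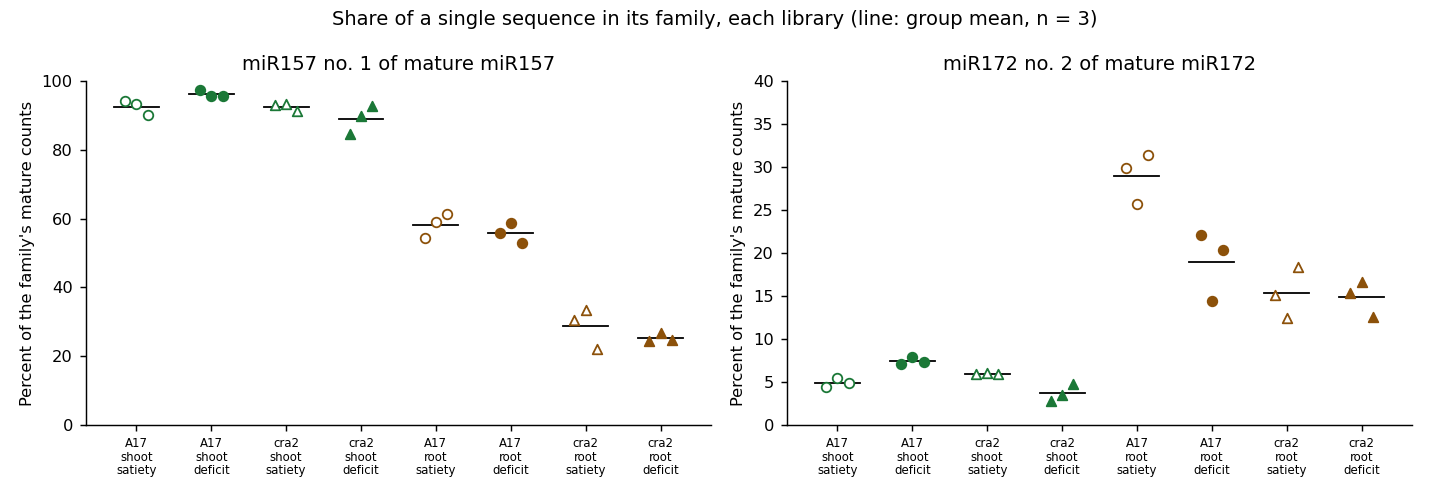
Share of miR157 no. 1 in mature miR157 counts (left, 0 to 100%) and of miR172 no. 2 in mature miR172 counts (right, 0 to 40%) in each library, with symbols as in the plot of levels and lines for means of 3 libraries. Shoots lie at 84.6% or more on the left and at 7.95% or less on the right, and on the left A17 roots (53.1% to 61.3%) and cra2 roots (22.1% to 33.4%) do not overlap.

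Genotype marked miR172 in the distant root. miR172 no. 1 was at 840, 1232 and 887 CPM in A17 and 556, 497 and 451 CPM in cra2 under satiety, and at 2163, 1661 and 1551 CPM in A17 and 655, 705 and 729 CPM in cra2 under deficit. Each cra2 library was below each A17 library of the same supply, and the log2 changes were -0.91 ± 0.20 and -1.33 ± 0.20 (SE; edgeR adjusted p = 0.0015 and 2.7e-05). miR172 no. 2 stood further apart, at 361, 430 and 410 against 100, 71.2 and 103 CPM under satiety and at 617, 282 and 398 against 119, 141 and 106 CPM under deficit. Its log2 changes were -2.07 ± 0.25 and -1.79 ± 0.25 (edgeR adjusted p = 2.2e-06 and 1.1e-05).

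miR172 opposite arm no. 1, the partner strand, was low everywhere but fell with the mature forms, from 13.1, 9.25 and 16.7 CPM in A17 to 1.91, 2.14 and 0.999 CPM in cra2 under satiety, with log2 changes of -2.79 ± 0.53 there and -2.16 ± 0.52 under deficit (edgeR adjusted p = 0.00039 and 0.0027). It rests on 1 to 3 counts in each cra2 root library. Summed over its mature forms, miR172 was lower in cra2 roots by -1.11 ± 0.20 under satiety and by -1.45 ± 0.20 under deficit (edgeR adjusted p = 0.00014 and 5.6e-06). These genotype calls of miR172 no. 1, no. 2 and the sum passed in every fit that left out 1 of the libraries compared.

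Of the miR156 sequences in roots, no. 1 was called by genotype under deficit and its opposite arm under satiety. miR156 no. 1 was at 1268, 1291 and 1443 CPM in A17 and 971, 1356 and 1561 CPM in cra2 under satiety, a log2 change of 0.03 ± 0.21 (edgeR adjusted p = 0.907). Under deficit it was at 687, 822 and 1057 CPM in A17 and 1461, 1078 and 1337 CPM in cra2, without overlap, a rise of 0.64 ± 0.21 (edgeR adjusted p = 0.023). That call was lost without A17 root deficit replicate 1 (0.54, edgeR adjusted p = 0.088) or cra2 root deficit replicate 1 (0.59, edgeR adjusted p = 0.092), and with upper-quartile scaling (0.39, edgeR adjusted p = 0.191). miR156 opposite arm no. 1 rose in cra2 under satiety, from 8.88, 9.77 and 13.5 CPM to 19.7, 22.8 and 44.0 CPM, by 1.46 ± 0.39 (edgeR adjusted p = 0.0063).

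The miR157 values spread widely. miR157 no. 2 was at 301, 353 and 342 CPM in A17 and 220, 504 and 2043 CPM in cra2 under satiety (1.54 ± 0.71, edgeR adjusted p = 0.156), and at 90.6, 211 and 235 against 560, 454 and 620 CPM under deficit, where the groups did not overlap (1.66 ± 0.72, edgeR adjusted p = 0.111). The latter passed with DESeq2 (1.72, adjusted p = 0.041) and with the compared libraries alone (1.66, edgeR adjusted p = 0.0009). It also passed with the replicate block (1.76, edgeR adjusted p = 0.048) and with both together (1.75, edgeR adjusted p = 0.0028). Same-numbered libraries of these groups correlated in their deviations from group means at 0.00483, 0.155 and -0.126, so their numbers were not taken as pairing. miR157 no. 1 differed by -0.52 ± 0.56 and -0.27 ± 0.57 (edgeR adjusted p = 0.54 and 0.759); without the library that stood apart the satiety value was -1.23 ± 0.41 (edgeR adjusted p = 0.035). In total 4 of 9 tested members were called by genotype in roots under satiety, beside 26.2% of all 168 sequences, and 4 of 9 under deficit, beside 32.7%. Their medians were -0.52 and -0.27, against 0.14 and 0.04 over all sequences. In the table with family sums 25.8% and 32.5% were called, and the miR156/miR157 sum was not (0.35 ± 0.32 and 0.65 ± 0.32; edgeR adjusted p = 0.425 and 0.139); the satiety value turned to -0.20 without the library that stood apart.

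Between local deficit and satiety, miR172 no. 1 and miR156 no. 1 were called in opposite directions in the distant roots of A17. miR172 no. 1 rose from 840, 1232 and 887 CPM under satiety to 2163, 1661 and 1551 CPM under deficit, without overlap, by 0.84 ± 0.20 (SE; edgeR adjusted p = 0.0065). miR156 no. 1 fell from 1268, 1291 and 1443 CPM to 687, 822 and 1057 CPM, also without overlap, by -0.67 ± 0.21 (edgeR adjusted p = 0.019). miR172 no. 2 was at 361, 430 and 410 against 617, 282 and 398 CPM, overlapping, with a change of 0.08 ± 0.24 (edgeR adjusted p = 0.807).

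These were 2 of 9 tested members, where 31% of all sequences were called, and the members' median change was -0.46 against 0.00 over all. The miR172 sum rose by 0.77 ± 0.19 (edgeR adjusted p = 0.0075, beside 32.5% called in that table), and the miR156/miR157 sum was at -0.65 ± 0.32 (edgeR adjusted p = 0.141). The miR156 no. 1 call was lost in 4 of 6 fits that left out a library, down to -0.43 without A17 root deficit replicate 1, -0.66 without A17 root deficit replicate 2, -0.62 without A17 root satiety replicate 2 and -0.54 without A17 root satiety replicate 3 (edgeR adjusted p 0.058 to 0.18). It was also lost with library totals (-0.58) and with upper-quartile scaling (-0.39; edgeR adjusted p = 0.071 and 0.188). The miR172 sum was lost without A17 root deficit replicate 1 (0.50), A17 root satiety replicate 1 (0.60) or A17 root satiety replicate 3 (0.65; edgeR adjusted p 0.0502 to 0.0673). With the replicate number as a block, miR157 no. 1 was called too (-1.14 ± 0.37, edgeR adjusted p = 0.027) and the miR156/miR157 sum passed (-0.68, edgeR adjusted p = 0.040). With the block and the A17 root libraries alone, 4 members were called and the miR172 sum was at 0.66 (edgeR adjusted p = 0.065). The share of all sequences called in that last fit is not given here.

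In cra2 roots neither miR172 no. 1 nor miR156 no. 1 was called in the same comparison. miR172 no. 1 was at 556, 497 and 451 CPM under satiety and 655, 705 and 729 CPM under deficit, without overlap, a change of 0.42 ± 0.20 that was not called (edgeR adjusted p = 0.124). The difference between the genotypes' responses, -0.42 ± 0.28, did not pass either (edgeR adjusted p = 0.539), so the response is not shown to differ between A17 and cra2. miR156 no. 1 was at -0.07 ± 0.21 (edgeR adjusted p = 0.853). miR156 opposite arm no. 1 fell by -1.06 ± 0.39 (edgeR adjusted p = 0.047), the 1 call among 9 members beside 28.6% over all sequences, and it was lost in 5 of 6 fits without a library, to -0.58 without the library that stood apart, and with DESeq2 (-1.02, adjusted p = 0.061). In the table with sums 25.8% were called, the miR172 sum at 0.44 ± 0.20 not among them (edgeR adjusted p = 0.102).

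**Figure D4:**
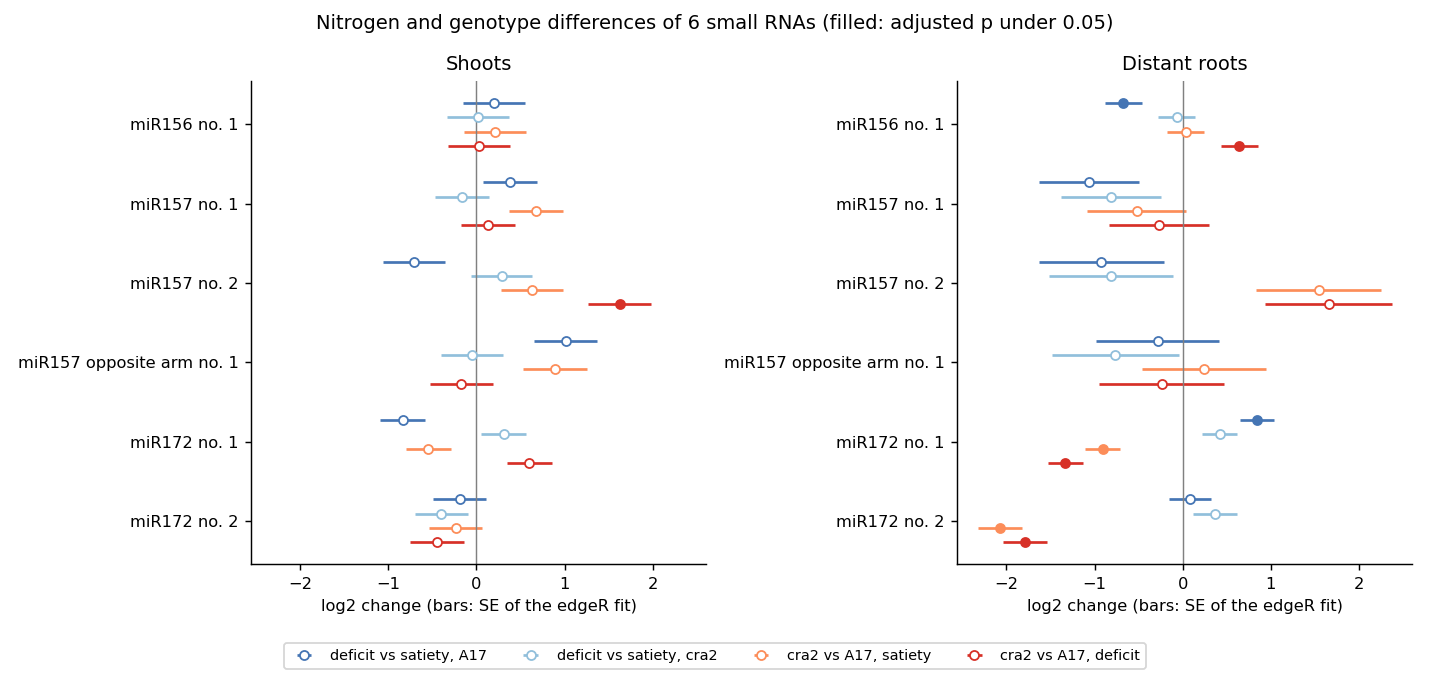
Log2 changes with their SE (edgeR fits) of 6 sequences in shoots (left) and distant roots (right) for 4 comparisons, filled where the adjusted p is under 0.05. In roots miR172 no. 1 and no. 2 lie left of 0 for cra2 against A17, and miR172 no. 1 and miR156 no. 1 are filled on opposite sides of 0 for deficit against satiety in A17; in shoots the only filled point is miR157 no. 2 for cra2 against A17 under deficit.

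In shoots few members changed. Under deficit against satiety none of 11 tested members was called in A17 or in cra2, where 0% and 0% of 189 sequences were called; at an unadjusted p under 0.05 there were 4 members in A17 (62 of all 189 sequences) and 0 in cra2 (12 of 189), and DESeq2 called 2 (30 of 189) and 0 (0 of 189). The members' median changes were 0.18 and -0.05, against -0.19 and -0.05 over all sequences. The 4 A17 values included miR172 no. 1, which was at 4344, 3398 and 3635 CPM under satiety and 2536, 2019 and 1401 CPM under deficit, without overlap, a value of -0.84 ± 0.26 (edgeR adjusted p = 0.058). miR157 opposite arm no. 1 was at 1602, 1497 and 2422 CPM and 3063, 4415 and 2837 CPM, again without overlap (1.01 ± 0.36, edgeR adjusted p = 0.082; DESeq2 1.16, adjusted p = 0.040).

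The spread of the cra2 shoot deficit libraries enters these fits. In a fit without that group, added after the files were seen, the A17 comparison called 5 members, miR172 no. 1 among them (-0.74 ± 0.23, edgeR adjusted p = 0.020). The share of all sequences called in that fit is not given here, so these 5 are not set against a background. The miR172 sum passed there as well (-0.75 against -0.79 with all shoots, edgeR adjusted p = 0.020 against 0.057). In cra2 shoots miR172 no. 1 was at 2729, 1519 and 2597 CPM under satiety and 3083, 3113 and 3272 CPM under deficit (0.31 ± 0.26, edgeR adjusted p = 0.717). Its response differed between genotypes by 1.15 ± 0.36, above the threshold in edgeR (adjusted p = 0.098) and under it in DESeq2 (1.11, adjusted p = 0.036). No member was called for this difference, beside 0% of all sequences, with 1 at an unadjusted p under 0.05 (51 of all 189 sequences) and 1 by DESeq2 (24 of 189).

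By genotype, no member was called in shoots under satiety (4 at an unadjusted p under 0.05, as were 39 of all 189 sequences, and 0 by DESeq2, which called 16 of 189), beside 6.88% of all sequences. Under deficit 1 of 11 was called, beside 13.2%. That was miR157 no. 2, which rose in cra2 from 158, 353 and 251 CPM to 987, 577 and 919 CPM, without overlap, by 1.62 ± 0.36 (edgeR adjusted p = 0.012; DESeq2 1.63, adjusted p = 0.001), though not in the fit of those 6 libraries alone. The members' medians were 0.26 and 0.03, against -0.02 and 0.09 over all sequences. With all shoot libraries no family sum was called in the 4 shoot comparisons, where 4.95% (supply in A17), 0% (supply in cra2), 7.14% (genotype, satiety) and 11.5% (genotype, deficit) of the rows in that table were. The miR156/miR157 sum for genotype under deficit, 0.14 ± 0.33, turned to -0.61 and was called (edgeR adjusted p = 0.046) without cra2 shoot deficit replicate 3, the library high for miR156 no. 1.

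The response of A17 to local supply was then compared between organs. miR172 no. 1 had a difference, shoot response minus root response, of -1.79 ± 0.34 (edgeR adjusted p = 0.00082), the 1 call among 11 members beside 27% of all sequences; the members' median was 0.27 against -0.31 over all. It held with DESeq2 (-1.49, adjusted p = 0.0002) and under the 3 other scalings tried (-1.94 to -1.49), of which relative log expression moved the median of all sequences from -0.31 to -0.01. In cra2 the same difference was -0.01 ± 0.34 (edgeR adjusted p = 0.9998). In the table with sums, where 26.9% were called, the miR172 sum was at -1.04 ± 0.30 (edgeR adjusted p = 0.012) and the miR156/miR157 sum at 1.43 ± 0.49 (edgeR adjusted p = 0.030). The latter was lost with the scaling factors of the sequence table (0.90, edgeR adjusted p = 0.184). The miR172 sum stayed called in all 10 other settings, but its size depended on them, from -1.69 to -1.03. Its group means were 2152 CPM under deficit against 4002 under satiety in shoots, and 2231 against 1395 in roots.

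Other sequences shared the profile of the families over the 8 group means, 148 sequences being compared by Pearson's r of log2 CPM, a description over points that share organs and scaling. A sequence is given no family where it matched none of the conserved families used here, so it may belong to a family outside them. Closest to the miR156/miR157 sum were gctcaagaaagctgtgggaga, an opposite arm of miR396 (r = 0.98), tgctcacttctctttctgtcatc, named above as outside the duplex rule (r = 0.97), and aaaagaatactcatacataacatt, with no family (r = 0.94). The second of these was at 15.1 to 58.1 CPM in shoots and 1.75 to 9.99 CPM in roots. Closest to the miR172 sum were ggagtgacactgagaacacaag, an opposite arm of miR398 (r = 0.97), tacttggtgaattgttggatc, with no family (r = 0.97), and tgtgttctcaggtcacccctt, a mature miR398 (r = 0.96).

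Other families tied to developmental timing, miR159, miR319 and miR390, act on MYB factors, TCP factors and, through TAS3 RNAs, auxin response factors. Of their 6 sequences tested in roots, 2 rose and 1 fell under deficit in A17 (31% of all sequences were called), and 3 rose in cra2 (28.6%). By genotype 1 was higher and 3 lower in cra2 under satiety (26.2%), and 1 higher and 2 lower under deficit (32.7%). In shoots 0 of 6 were called in the supply and genotype comparisons by edgeR.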

How the data were processed

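Per the labels' protocols, libraries of size-selected small RNA came from a NEXTFLEX kit (v3), after extraction of total RNA on miRNeasy columns. Reads were processed with cutadapt, per the submitters' processing notes; no source used here gives its version, the aligner or the counting tool. For each of 24 libraries the authors deposited raw counts of 427 sequences, which were used unchanged. Replicates of a group differed beyond counting error (chi-square per degree of freedom 26.4 to 476.2 over 24 pairs).

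Families were assigned with 18-nt cores of 16 conserved plant families written from general knowledge; genomic positions were not analysed here. The members, the timing families and these lists were chosen with earlier results of these data known. Named sequences are those with the most counts in each family, and others where called. Shoots and roots (12 libraries each) were fitted apart, and organ contrasts over all 24, with edgeR 4.0.16 in R 4.3.3 (TMM, a minimum count of 10 by group, robust quasi-likelihood tests, Benjamini-Hochberg over all sequences). Family sums replaced the members in a second table. Ratios used counts + 0.5 and exact permutation within strata. Alternatives were DESeq2 1.42.0, other scalings and filters, subsets of libraries and a replicate block. Not planned beforehand were the fits without the cra2 shoot deficit group, with the scaling factors of the sequence table, and with the block and the compared libraries alone. The scripts were tested on simulated data.

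Of 3 same-numbered pairs, A17 root deficit and satiety correlated in their deviations from group means at 0.21, 0.133 and 0.342, and A17 deficit shoot and root at 0.306, 0.135 and 0.311. These numbers were taken as pairing. Other groups had a pair at or under 0.1. The replicate block used the numbers of every group in a fit, also where they were not taken as pairing.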

Additional observations from a re-analysis of the deposited data

Results flagged for a closer look

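In A17 the response to local deficit differed between shoot and distant root by an interaction term. For miR172 no. 1 the shoot response minus the root response was -1.79 on the log2 scale (edgeR adjusted p = 0.00082): deficit means were 1985 against 3792 CPM in shoots and 1791 against 986 CPM in roots (n = 3 each). For the summed mature miR172 sequences the difference was -1.04 (edgeR adjusted p = 0.012), and -1.69 to -1.03 in 10 other settings. For the summed mature miR156 and miR157 sequences it was 1.43 (edgeR adjusted p = 0.030), which dropped past the threshold in most other fits.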

How the results depend on the processing

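Of 1323 values of 80 results recomputed under alternatives, 1187 kept their direction and side of the threshold (counts within 1.5 times, ratio tests without a library by unadjusted permutation p) and 136 did not. The organ and root genotype calls of miR172 no. 1 and no. 2, and the ratio tests of organ and root genotype, were among those kept, as was the sign of every called member under the 3 other scalings. The counts of members called were sensitive, and the share of all sequences called in each alternative fit is not given beside them. Supply in A17 shoots (0) gave 2 with DESeq2, 5 with the compared libraries alone (5 with the replicate block too) and 5 without the cra2 shoot deficit group. Genotype in satiety shoots (0) gave 2 with the compared libraries, with or without the replicate block, and 2 without the cra2 shoot deficit group. Genotype in deficit shoots (1) gave 0 with the compared libraries, with or without the block, and 2 with library totals. Supply in A17 roots (2) gave 4 with the compared libraries, with or without the block, 1 with library totals and 1 with upper-quartile scaling. Supply in cra2 roots (1) gave 0 with DESeq2, relative log expression, no filter, the compared libraries (with or without the block) and without the most abundant sequence. Library totals and a filter of 10 CPM in 3 libraries also gave 1, but not miR156 opposite arm no. 1 (-0.72 and -0.89, edgeR adjusted p = 0.169 and 0.095). The organ difference of the A17 response (1) gave 3 with DESeq2, 2 with relative log expression, 2 with the replicate block, 4 with no filter, 4 without the most abundant sequence and 6 with the compared libraries. The genotype difference of the shoot response (0) gave 1 with DESeq2 and 1 with library totals.

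The miR156/miR157 sum passed in genotype deficit roots (0.65, not called) with DESeq2 (0.80), library totals (0.87), no filter (0.71), the compared libraries (0.72), the replicate block (0.71) and both together (0.75), and for supply in A17 roots (-0.65, not called) with DESeq2 (-0.81), no filter (-0.66), the compared libraries (-0.78), the replicate block (-0.68) and both together (-0.8). Its organ difference in A17 (1.43) was lost with DESeq2 (1.23), relative log expression (1.23), a filter of 10 CPM in 3 libraries (0.84), library totals (0.84), upper-quartile scaling (1.18) and the scaling factors of the sequence table (0.90). Uncalled values near 0 turned sign: supply in cra2 shoots (-0.01) became 0.10 with DESeq2 and relative log expression, 0.12 with the 10 CPM filter, 0.31 with library totals, 0.03 with no filter, 0.08 with the compared libraries and 0.08 without the most abundant sequence; supply in cra2 roots (-0.34) became 0.02 with library totals; and genotype in deficit shoots (0.14) became -0.00 with no filter. The miR172 sum passed in genotype deficit shoots with library totals (1.10), for supply in cra2 roots with library totals (0.72) and the compared libraries (0.44), and for supply in A17 shoots with the compared libraries (-0.82), these with the replicate block (-0.86) and without the cra2 shoot deficit group (-0.75); for supply in A17 roots it missed the threshold with the block and the compared libraries (0.66). Of the ratio tests, root supply (-1.05) missed it with a replicate block (exact sign flips over pairs, -1.05, permutation p = 0.0625), in which the cra2 numbers were not taken as pairing. With the replicate block in the fits of all libraries no member's call was lost, and miR157 no. 1 (supply in A17 roots, -1.14; organ difference in A17, 1.41) and miR157 no. 2 (genotype in deficit roots, 1.76) were called in addition. For genotype in deficit roots the replicate numbers were not taken as pairing. The cause of these changes was not tested.

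Leaving out 1 library at a time gave members called of 1 to 2 (supply, A17 roots), 0 to 3 (supply, cra2 roots), 1 to 3 (genotype, deficit shoots), 1 to 2 (organ difference, A17) and 0 to 4 (genotype difference, shoots). The share of all sequences called in each of these fits is not given here, so these counts are not set against a background. The miR156/miR157 sum ranged from -0.58 to 0.42 (supply, cra2 shoots), -0.66 to 0.21 (supply, cra2 roots), -0.61 to 0.47 (genotype, deficit shoots), -0.20 to 0.67 (genotype, satiety roots) and 1.20 to 1.63 (organ difference, A17), the miR172 sum from 0.50 to 0.84 (supply, A17 roots), and the log2 ratio from -0.01 to 0.30 (genotype, shoots) and -1.29 to -0.79 (supply, roots). Requiring duplexes without a bulged base left 10 of the 14 members and removed the 4 opposite arms of miR156/miR157. Rare members, at fewer than 10 counts in many root libraries, were not tested there.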
